A study of Mus musculus with 4 samples.

Results

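RNA signal in germ cells of the fetal mouse testis was compared with that in germ cells of the fetal ovary, gene by gene, from 2 of the series' 4 libraries. The members are these 2 germ cell libraries, chosen by their labels, and the comparison covers all 20299 genes of the deposited tables. Both come from fetuses of CF1 females mated with TgOG2 males, taken at 15.5 days post coitum (dpc). The TgOG2 transgene expresses EGFP from the Oct4 promoter in germ cells, and EGFP-positive cells of male or female gonads were collected by flow cytometry. The other 2 libraries, the EGFP-negative gonadal somatic cells of each sex from the same cross and age, give background levels here. Each of the 4 groups has 1 library, and the labels do not say how many fetuses each library holds. No difference below therefore has a replicate check, and none has a p-value.

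At this age germ cells of the testis have stopped dividing and begin to lay down the DNA methylation of the male germ line. Germ cells of the ovary have entered the first meiotic prophase, in which homologous chromosomes pair, break and recombine. Both descend from primordial germ cells, which reach the gonad with a pluripotency-related gene program that is later shut down.

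Levels are given as scaled signal (SPM), the deposited gene signal per 1000000 of the library total. They are not divided by gene length, so a level compares libraries and not genes. Of low values, 43.1% in male and 54.3% in female germ cells lay near multiples of a fixed spacing, against 24.4% and 16.5% by chance. The spacing was read as the worth of 1 sequenced fragment, though many low values do not sit on it. That puts depth at about 25.0 M fragments in male germ cells and 17.6 M in female germ cells, where M is 1000000. All fragment numbers below rest on this reading. Each fold below carries a 95% exact binomial interval on these estimated fragments, which covers counting error only. Where a gene was listed at 0, its fold was taken against 3 fragments, worth 0.120 SPM in male and 0.171 SPM in female germ cells (the floor), and is written as at least that size. In bulk libraries, fewer cells of a type and less RNA per cell cannot be told apart.

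Of the 11814 genes at 5 SPM or more in either germ library, 2864, or 24.2%, differed by at least 4-fold. The male library was the higher one for 1886 of them, or 16.0%, and the female library for 978, or 8.28%. These shares are the background for every gene list below, but they vary with level, and the lists were not matched for level. The male share was 27.2% at 5 to 20 SPM in the higher germ library and 8.25% at 100 to 500 SPM. Genes within 2-fold made up 47.2%, with quartiles of the log2 ratio (male over female, 0.5 SPM added to each) at -0.87 and 1.25. The 95th percentile stood at 3.36 and the 5th percentile at -2.35, and 1926 genes were listed at 0 in female germ cells while above the floor in male germ cells, against 73 the other way round. List medians below are log2 ratios on the same scale over members at 1 SPM or more, beside a median of 0.26 over all 14804 such genes. Dividing by trimmed-mean factors, upper quartiles or medians of ratios in place of totals would shift that median by -0.17, 0.12 and -0.20.

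**Figure D1:**
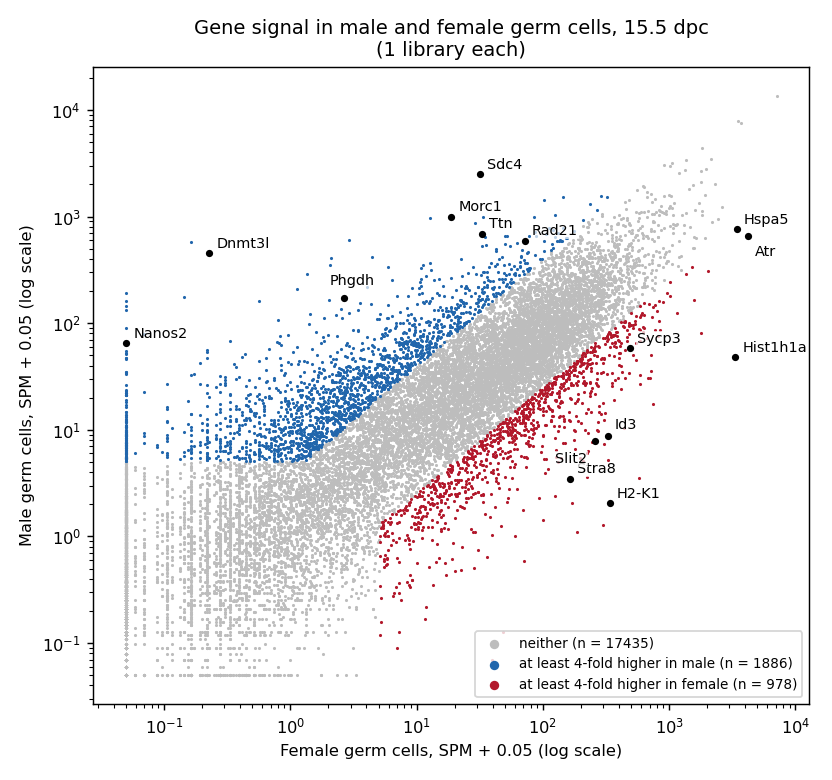
Signal of each of 20299 genes in female germ cells (x axis, SPM + 0.05, log scale) and male germ cells (y axis, SPM + 0.05, log scale), 1 library each, with the 1886 genes at least 4-fold higher in male in blue and the 978 at least 4-fold higher in female in red. Many blue points lie on the left edge, where genes are listed at 0 in female germ cells, with Atr and Hspa5 at 4181 and 3424 SPM at the far right.

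The 4 markers of the groups followed the labels. Nanos2, an RNA-binding protein that holds male germ cells out of meiosis, stood at 64.9 SPM in testis and 0 in ovary germ cells, at least 380-fold higher. Dnmt3l, the cofactor of the de novo DNA methyltransferases, stood at 455 and 0.179 SPM, the latter from 3 fragments, a ratio of 2542 (911 to 12915). Stra8, the gene that licenses meiotic entry, stood at 3.41 and 163 SPM, 47.8-fold higher in female (38.6 to 60.2). Sycp3, a component of the chromosome axis that pairs in meiosis, stood at 58.3 and 486 SPM, 8.35-fold higher in female (7.90 to 8.83). All 4 were at or below 4.51 SPM in both somatic libraries. Pou5f1, the gene whose promoter drives the sort marker, stood at 531 SPM in testis and 33.0 in ovary germ cells, 16.1-fold higher in male (14.8 to 17.5). The EGFP signal itself is not among the values used here.

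The promoters of these genes and of the meiotic cohesin genes below are shown because the same 6 letters recur among the meiotic ones. Each is 280 bases from RefSeq (build GRCm38.p6), 250 before the gene's start and 30 from it on, printed 5′ to 3′ along the gene. In the last 3, capitals mark GCGGGA, the core of sites bound by E2F factors, or its reverse complement. In the promoters of Nanos2 (chr7:18987274-18987553, plus strand) and Stra8 (chr6:34920698-34920977, plus strand) nothing is marked. Those of Sycp3 (chr10:88459337-88459616, plus strand), Smc1b (chr15:85131928-85132207, minus strand) and Stag3 (chr5:138280259-138280538, plus strand) hold 1 match each.
Nanos2: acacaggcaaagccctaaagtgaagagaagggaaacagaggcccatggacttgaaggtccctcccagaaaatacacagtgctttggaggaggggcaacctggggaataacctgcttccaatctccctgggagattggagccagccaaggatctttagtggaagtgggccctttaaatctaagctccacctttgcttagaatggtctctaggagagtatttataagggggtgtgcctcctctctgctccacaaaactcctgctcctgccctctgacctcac
Stra8: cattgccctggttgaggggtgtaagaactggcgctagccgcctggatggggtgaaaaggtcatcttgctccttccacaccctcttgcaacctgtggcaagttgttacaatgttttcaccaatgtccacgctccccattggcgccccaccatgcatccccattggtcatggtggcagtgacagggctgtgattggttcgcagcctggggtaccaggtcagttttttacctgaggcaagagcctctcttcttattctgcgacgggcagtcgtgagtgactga
Sycp3: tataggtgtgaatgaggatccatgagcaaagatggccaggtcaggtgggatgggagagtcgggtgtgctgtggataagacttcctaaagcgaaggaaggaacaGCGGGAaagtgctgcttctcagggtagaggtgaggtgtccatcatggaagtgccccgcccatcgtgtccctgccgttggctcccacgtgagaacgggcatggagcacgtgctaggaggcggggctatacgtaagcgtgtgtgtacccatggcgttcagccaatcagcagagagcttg
Smc1b: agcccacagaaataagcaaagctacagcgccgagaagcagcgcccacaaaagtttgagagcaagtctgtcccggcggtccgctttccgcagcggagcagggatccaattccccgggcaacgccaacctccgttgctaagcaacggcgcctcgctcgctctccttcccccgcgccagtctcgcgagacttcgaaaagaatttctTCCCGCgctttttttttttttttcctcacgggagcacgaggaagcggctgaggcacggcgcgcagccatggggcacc
Stag3: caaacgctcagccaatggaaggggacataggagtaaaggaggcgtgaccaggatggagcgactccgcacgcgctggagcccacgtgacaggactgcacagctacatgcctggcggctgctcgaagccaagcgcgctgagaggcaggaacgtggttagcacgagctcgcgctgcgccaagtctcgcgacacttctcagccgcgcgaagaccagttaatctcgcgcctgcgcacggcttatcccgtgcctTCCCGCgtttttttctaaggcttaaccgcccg

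GCGGGA, on either strand, was in at least 1 promoter entry of 300 bases for 13 of 21 meiosis genes, including Dmc1, Hormad1, Mnd1, Prdm9, Sycp1 and Tex12. These 21 are the genes with a RefSeq entry among 27 tested. The string was in 19.98% of all 32851 promoter entries of that length. This share counts entries and not genes, and a gene can have several, so the 2 measures are not alike. The string was kept after its matches had been seen, 1 of 3 kept among 7 strings tried, and a match is a stretch of letters and not a bound site. Another of the 3, TTTGCAT, is the core of the octamer bound by POU factors. It was found for 3 of 10 pluripotency genes with an entry, of 16 tested (Nanog, Sox2 and Zfp42), and in 4.63% of all promoter entries. Both lists fall under the 80% of genes with an entry that was asked for in the promoter CpG check.

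Of the 15 largest ratios in the male direction, 5 went to the Y genes Ube1y1 (581 and 0.113 SPM), Eif2s3y, Rbmy1a1, Usp9y and Ddx3y, and others to autosomal genes of varied function. Abcd2, a peroxisomal transporter of very long chain fatty acids, stood at 162 SPM in testis and 0 in ovary germ cells, at least 950-fold higher, with 16.1 and 14.9 SPM in somatic cells of testis and ovary. Tmc7, a transmembrane channel-like protein, stood at 177 and 0.0942 SPM, a ratio of 1879 from 2 female fragments (430 to 12841). Vwf, the von Willebrand clotting factor, stood at 288 and 1.30 SPM, 221-fold higher (146 to 347). Male germ cells held far more Vwf than either somatic library, at 6 and 2.10 SPM, although the gene is best known from endothelium. Tspan8, a tetraspanin, stood at 161 and 0.518 SPM, and Rrad, a Ras-related GTPase, at 352 and 2.00 SPM. By difference in level rather than ratio, the translation factor gene Eef1a1 led, at 13628 against 7111 SPM, only 1.92-fold. Sdc4, a cell surface heparan sulfate proteoglycan, combined both measures, at 2484 against 31.6 SPM, 78.5-fold (72.2 to 85.4).

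In the female direction the genes with the largest ratios included several of meiosis. Ccdc79, a telomere protein of meiotic prophase, stood at 1.23 SPM in testis and 297 in ovary germ cells, 241-fold higher (168 to 352). Prdm9, the histone methyltransferase that places recombination hotspots, stood at 5.15 and 331 SPM. Others are known from elsewhere. Pparg, a nuclear receptor of fat cell differentiation, stood at 0.0196 SPM in male, less than 1 fragment, and 39.7 in female germ cells, a ratio whose interval begins at 268 and has no upper end. Pcdh17, a protocadherin, stood at 0.0783 and 48.2 SPM, a ratio of 616 from 2 male fragments (166 to 4973). By difference in level, Atr, the kinase that senses unrepaired DNA, led at 656 against 4181 SPM, followed by the linker histone gene Hist1h1a at 48.2 against 3336 SPM and the chaperone gene Hspa5 at 759 against 3424 SPM. Macf1, a large linker of actin and microtubules, stood at 311 against 2019 SPM.

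**Figure D2:**
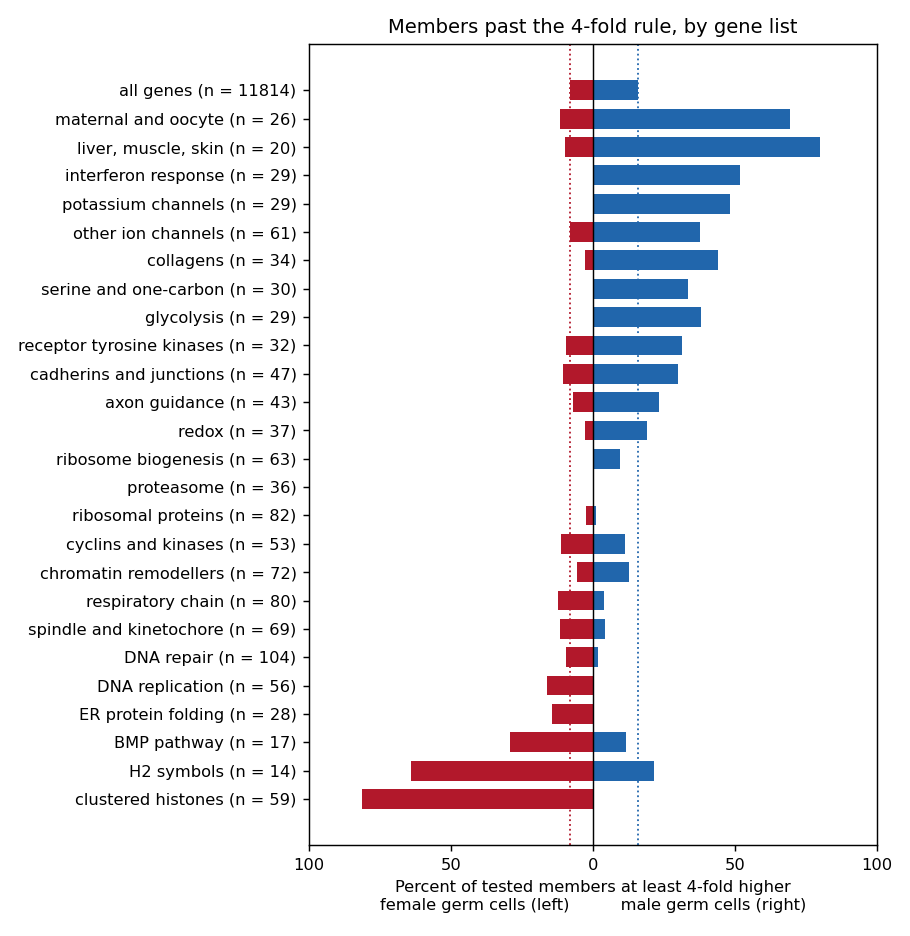
Share of tested members (percent, x axis) at least 4-fold higher in male germ cells (blue, to the right) and in female germ cells (red, to the left) for selected gene lists and symbol families, with the share over all 11814 tested genes as the top bars and dotted lines. The lists of endoplasmic reticulum protein folding and of the BMP pathway were written after their values were seen. Liver, muscle and skin genes and maternal genes reach furthest right at 80% and 69.2%, and clustered histones furthest left at 81.4%.

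Enzymes that handle glucose and serine were among the groups that stood higher in male germ cells. Of 29 tested glycolysis genes, 11 were at least 4-fold higher in male and 0 in female, with a list median of 1.28. Slc2a3, a glucose transporter, stood at 560 SPM in testis and 62.7 in ovary germ cells, 8.92-fold higher (8.39 to 9.49). Hk2, the hexokinase that traps glucose, stood at 52.9 and 2.96 SPM. Pgam1, which moves the phosphate late in the pathway, stood at 544 and 35.3 SPM, and Pkm2, the last enzyme, at 1537 and 323 SPM. Pgk1, an X-linked enzyme of the same pathway, went the other way at 22.4 and 53.0 SPM. Many glycolytic genes have processed pseudogenes, and no source used here says how their reads were assigned.

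Of 30 tested genes of serine and one-carbon metabolism, 10 were at least 4-fold higher in male and 0 in female, with a median of 1.05. Phgdh, which takes the first step from glycolysis to serine, stood at 173 SPM in testis and 2.63 in ovary germ cells, 65.9-fold higher (49.5 to 90.5). Female germ cells also stood below both somatic libraries for this gene, at 49.8 and 70.2 SPM in somatic cells of testis and ovary. Shmt2 and Shmt1, the mitochondrial and cytosolic enzymes that split serine into a one-carbon unit, stood at 79.9 against 5.23 SPM and at 293 against 49.4 SPM. The step between them did not follow, since Psat1, the transaminase after Phgdh, stood at 60.3 SPM in testis and 123 in ovary germ cells. The methionine adenosyltransferases, which make the methyl donor, were split. Mat1a, usually a liver enzyme, stood at 56.6 and 1.43 SPM, 39.5-fold higher in male (26.8 to 61.7). Mat2a, the widely expressed one, stood at 96.1 and 258 SPM, 2.68-fold higher in female (2.55 to 2.82).

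Of 37 tested genes of redox defence, 7 were at least 4-fold higher in male and 1 in female. The male share, 18.9%, was near the 16.0% of all tested genes. Slc7a11, the cystine importer that feeds glutathione synthesis, stood at 21.3 and 0.283 SPM, Hmox1, heme oxygenase, at 61.5 and 2.85 SPM, and Gsr, glutathione reductase, at 277 and 22.6 SPM. The female exception was Txn1, thioredoxin, at 1.15 and 5.21 SPM. Sod2, the superoxide dismutase of mitochondria, missed the size rule at 55.7 SPM in testis and 175 in ovary germ cells. Of 38 fatty acid genes, 12 were at least 4-fold higher in male and 3 in female. Acadm, a dehydrogenase of fatty acid oxidation, stood at 261 and 15 SPM, and Elovl6, an elongase, at 101 and 6.79 SPM.

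The respiratory chain leaned the other way. Of 80 tested subunit and assembly symbols, 3 were at least 4-fold higher in male and 10 in female, and 55 of the 80 stood higher in female, with a median of -0.50. The members with large ratios were single subunits and not whole complexes. Atp5f1, a stalk subunit of ATP synthase, stood at 32.8 SPM in testis and 592 in ovary germ cells, 18.1-fold higher in female (16.8 to 19.4). Ndufv2, a subunit of complex I, stood at 34.8 and 423 SPM. Ndufa1, an X-linked subunit, stood at 1.70 and 69.2 SPM, and also stood below 5 SPM in both somatic libraries. Ndufs8 was a male exception at 93.9 and 21.9 SPM. By contrast 0 of 36 proteasome genes and 3 of 82 ribosomal protein genes differed 4-fold, and 22 of the former and 68 of the latter stood within 2-fold.

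Part of the protein folding machinery of the endoplasmic reticulum (ER) stood higher in female germ cells. The 28 listed genes, all tested, summed to 5426 SPM in testis and 11486 in ovary germ cells, with a median of -0.79. Of these 0 were 2-fold higher in male, 13 were 2-fold higher in female and 4 passed the 4-fold rule. Another 15 were within 2-fold, and 9 of the 28 had more signal in male. The list was written after these values were seen, so its counts describe these libraries only. Hspa5 (BiP), the main ER chaperone, was 4.51-fold higher in female (4.44 to 4.59), with somatic levels of 1343 SPM in male and 1024 in female between the germ cell levels. Calr, the calcium-binding lectin chaperone, stood at 336 and 1507 SPM, and Manf, a secreted ER stress protein, at 34 and 143 SPM. Hspa5 and Calr, at 3424 and 1507 SPM, held a large part of the summed signal in ovary germ cells. Sdf2l1, a partner of Hspa5, had the largest ratio of the list, 7.11 (5.82 to 8.77), at 4.66 and 33.1 SPM. Dnajb11 and Dnajc3, cochaperones of Hspa5, stood at 189 against 605 SPM and at 55.2 against 207 SPM. Transcription factors of the stress response did not follow. Xbp1 stood at 16.0 and 11.6 SPM, Atf4 at 77.8 and 76.6 SPM, and Ddit3 at 13.2 and 7.21 SPM in testis and ovary germ cells.

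Promoters of 3 of these chaperone genes are shown because they hold the ER stress element, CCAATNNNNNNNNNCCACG, to which stress-activated factors bind. Capitals mark its fixed letters on either strand, and the 9 free bases between them are in lower case. The 280 bases run as above in Hspa5 (chr2:34771840-34772119, plus strand), Calr (chr8:84846902-84847181, minus strand) and Dnajc3 (chr14:118937682-118937961, plus strand).
Hspa5: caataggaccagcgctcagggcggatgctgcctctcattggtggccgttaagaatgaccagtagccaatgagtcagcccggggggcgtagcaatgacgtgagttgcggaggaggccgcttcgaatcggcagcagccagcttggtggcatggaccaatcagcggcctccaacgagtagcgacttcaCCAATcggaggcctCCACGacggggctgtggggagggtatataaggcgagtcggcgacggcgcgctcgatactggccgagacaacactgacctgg
Calr: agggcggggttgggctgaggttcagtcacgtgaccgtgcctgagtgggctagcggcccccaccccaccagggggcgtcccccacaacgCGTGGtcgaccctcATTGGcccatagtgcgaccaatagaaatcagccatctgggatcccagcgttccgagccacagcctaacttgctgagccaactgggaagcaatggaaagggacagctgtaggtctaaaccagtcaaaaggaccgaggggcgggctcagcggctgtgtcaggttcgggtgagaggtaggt
Dnajc3: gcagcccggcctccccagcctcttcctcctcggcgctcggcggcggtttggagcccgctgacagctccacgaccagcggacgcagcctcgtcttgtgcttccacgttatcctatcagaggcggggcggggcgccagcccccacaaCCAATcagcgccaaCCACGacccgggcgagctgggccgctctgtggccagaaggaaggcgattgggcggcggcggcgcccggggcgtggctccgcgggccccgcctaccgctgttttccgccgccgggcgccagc

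The element, which contains the shorter strings CCAAT and CCACG, was found for 8 of the 23 ER folding genes with a RefSeq promoter. It was in 39 of all 32851 promoter entries, or 0.119%, again counted by entry and not by gene. Hspa5 and Calr are textbook carriers of this element. Sdf2l1, with the largest ratio, had no match in its window, whereas Creld2, an ER protein with a match, stood at 206 SPM in testis and 109.8 in ovary germ cells.

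Signalling genes differed in both directions. In the BMP pathway, whose signal is needed for germ cells to form, Bmp4, a ligand, stood at 7.88 SPM in testis and 1.28 in ovary germ cells, and Bmpr1b, a receptor, at 23.4 and 1.10 SPM. The ligand Bmp2, at 0.646 and 4.80 SPM, had more signal in female but stood under the minimum of 5 SPM. The receptors Bmpr1a, at 97.4 and 216 SPM, and Bmpr2, at 23.3 and 73.0 SPM, had more signal in female but were under 4-fold. Several known targets of the pathway stood higher in female. Id1 stood at 1.2 and 46.6 SPM, 38.7-fold higher in female (26.9 to 57.8). Id3, another inhibitor of helix-loop-helix factors, stood at 8.72 and 326 SPM, 37.4-fold higher (32.6 to 42.9), and Id2 at 1.06 and 28.8 SPM. Msx1, a homeobox factor, stood at 0.205 and 7.43 SPM, and Smad6, an inhibitory Smad, at 1.67 and 7.12 SPM. Id4 was nearly even, at 7.97 and 9.77 SPM. In all, 2 of 17 tested BMP genes were 4-fold higher in male and 5 in female, on a list also written after its values were seen. Id2 and Id3 stood higher in female somatic cells than in female germ cells, at 129.9 and 412 SPM, and the part of somatic RNA in the germ libraries was not tested for these genes.

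Of 23 tested genes of the Nodal and TGF-beta pathways, 7 were at least 4-fold higher in male and 1 in female. Nodal, the ligand, stood at 9.14 SPM in testis and 0.339 in ovary germ cells, and its feedback inhibitors Lefty1 and Lefty2 at 14.9 against 0.443 SPM and at 7.42 against 0 SPM. Wnt genes were mixed, with 6 of 52 (11.5%) higher in male and 5 (9.62%) in female. These shares were near the 16.0% and 8.28% of all tested genes. Wnt3, a ligand, stood at 15.1 and 1.08 SPM and was listed at 0 in both somatic libraries. Kremen2, which helps Dkk inhibitors remove the Wnt coreceptor, stood at 83.1 and 1.55 SPM. Fzd8, a receptor, stood at 1.17 and 13.2 SPM, and Nkd1, a feedback target, at 7.93 and 41.5 SPM.

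Of 32 tested receptor tyrosine kinases, 10 were at least 4-fold higher in male and 3 in female. Met, the receptor for hepatocyte growth factor, stood at 53.9 and 0.999 SPM, 53.9-fold higher (33.1 to 89.0). Ddr1, a collagen receptor, stood at 348 and 11.1 SPM, and Erbb3, a neuregulin receptor, at 129 and 17.0 SPM. The 3 female members were Ltk, at 0.117 and 11.6 SPM, Fgfr3, an FGF receptor, at 10.1 and 80.9 SPM, and Tyro3, a receptor for Gas6, at 32.1 and 132 SPM. Among 22 cytokine receptors, 12 were 4-fold higher in male and 1 in female, with Il10ra at 41.0 and 0.311 SPM.

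Guidance cues, which steer axons and migrating cells, had 10 of 43 members at least 4-fold higher in male and 3 in female. The list median was 0.65, and 0.18 with a minimum of 20 SPM. Plxnb1, a semaphorin receptor, stood at 372 and 66.1 SPM. Slit2, a repulsive ligand, stood at 7.76 SPM in testis and 258 in ovary germ cells, 33.3-fold higher in female (28.7 to 38.5), and at 428 and 290.3 SPM in somatic cells of testis and ovary. Efnb2, an ephrin ligand, stood at 1.12 and 26.8 SPM. For Slit2 the female germ library was therefore close to the somatic libraries, and the male germ library was the low one.

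**Figure D3:**
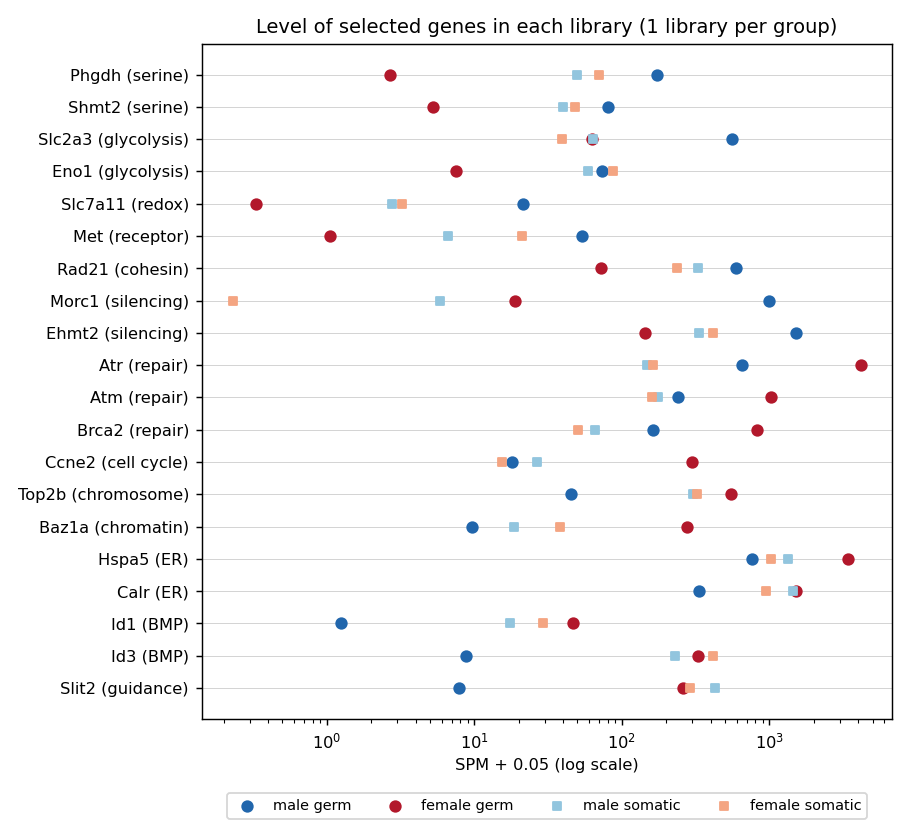
Level (x axis, SPM + 0.05, log scale) of 20 named genes in each of the 4 libraries, with germ cells as circles and somatic cells as squares, 1 library per point. For Phgdh, Shmt2 and Id1 both somatic points lie between the germ points, and for Slit2 the male germ point is the lowest of the 4, with the other 3 close together.

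Among lists with at least 20 tested members, those of liver, muscle and skin genes and of oocyte genes had the largest male shares. Of 20 tested liver, muscle and skin genes, 16 were at least 4-fold higher in male germ cells and 2 in female. Ttn, the giant spring of striated muscle, stood at 689 and 33.1 SPM, against 22.6 and 5.11 SPM in somatic cells of testis and ovary. Myh7, a cardiac myosin heavy chain, stood at 107 and 0.744 SPM, Neb, nebulin of the thin filament, at 224 and 22.5 SPM, and Afp, a fetal serum protein, at 33.6 and 0 SPM. Of 29 potassium channel genes, 14 were 4-fold higher in male and 0 in female, among them Kcnu1, a sperm channel, at 31.0 and 0.339 SPM. Collagens had 15 of 34 higher in male and 1 in female. Of 11 stromal markers, 10 also had more signal in the male germ library, summing to 239 SPM against 58.9 SPM. The stromal markers include the collagens Col1a1, Col1a2 and Col3a1, so these groups overlap.

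Of 26 tested genes known from the oocyte and early embryo, 18 were at least 4-fold higher in male germ cells and 3 in female. The list median was 2.74, or 3.09 with genes at 0 set to their bound. Nlrp4c, Nlrp4f and Nlrp14, NLR family genes of the egg, stood at 213 against 9.08 SPM, 133 against 3.39 SPM and 108 against 4.97 SPM, with reads of near-identical copies uncertain. Tle6, a member of the subcortical maternal complex, stood at 152 and 20.9 SPM. The 3 female members are factors of the early oocyte. Figla, which activates zona pellucida genes, stood at 3.49 and 57.1 SPM, and Sohlh2 at 12.1 and 163 SPM, and the third was Lhx8. Genes of later spermatogenesis were split, 6 of 21 higher in male and 8 in female. Nxf2, an X-linked RNA exporter, stood at 999 and 33.5 SPM and Akap4, of the sperm tail, at 25.0 and 0.207 SPM. Akap3, its partner in the sperm tail, stood at 0.695 and 30.6 SPM, and Spaca1, an acrosome protein, at 1.43 and 19.96 SPM.

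Genes of the interferon response had 15 of 29 tested members at least 4-fold higher in male and 0 in female, with a median of 1.79. The 15 include Oas3, Oas1c, Oas1g, Oas1a and Oas1d, neighbours on chromosome 5, where reads of near-identical copies are uncertain. Ddx58 (RIG-I), a sensor of viral RNA, stood at 112 and 10.7 SPM, Irf1, a transcription factor, at 65.2 and 9.18 SPM, and Nlrc5, an activator of class I histocompatibility genes, at 11.1 and 0 SPM. The class I genes stood the other way. Of 14 tested H2 symbols, 9 were 4-fold higher in female and 3 in male. H2-K1 stood at 2.00 and 338 SPM, 169-fold higher in female (128 to 228), and H2-D1 at 3.54 and 223 SPM, 63.0-fold (51.2 to 79.0). Both stood at 8.73 SPM or below in the somatic libraries, so the female germ library was the one apart. H2-Ke2 and H2-Ke6, which lie in the region but encode no class I molecule, did not pass. H2-M3, a nonclassical member, stood at 7.55 and 0 SPM. Reads of these near-identical and polymorphic genes cannot be assigned to a single copy, and the effect of the outbred mothers' alleles on mapping was not tested.

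Genes that copy, guard and part the chromosomes stood higher in female germ cells more often than in male. Of 104 tested genes of general DNA repair, 2 were at least 4-fold higher in male and 10 in female, with a median of -0.32. The female share, 9.62%, was near the 8.28% of all tested genes, while the male share, 1.92%, was below their 16.0%. Atr was 6.38-fold higher in female (6.27 to 6.48). Atm, the kinase that responds to double-strand breaks, stood at 242 and 1022 SPM, and Brca2, which loads the strand exchange proteins, at 163 and 829 SPM. Mdc1, the adaptor that spreads the damage mark, stood at 33.7 and 484 SPM, and H2afx, the histone that carries it, at 9.64 and 179 SPM. Ddb2, a sensor of ultraviolet damage, stood at 9.95 and 270.1 SPM, 27.2-fold higher in female (23.9 to 31.0), and Poln, a translesion polymerase, at 5.41 and 198 SPM. The 2 male members act in base excision repair. Neil2, a glycosylase, stood at 36.7 and 1.80 SPM, and Apex1, the endonuclease of abasic sites, at 359 and 43.7 SPM.

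All 9 of the 56 tested replication genes that passed the 4-fold rule were higher in female, and the list median was -0.74. Gmnn, which blocks repeated licensing, stood at 18.4 and 139 SPM, Orc1, of the origin recognition complex, at 15.5 and 94.3 SPM, and Rrm2, which makes deoxynucleotides, at 3.69 and 29.8 SPM. Cell cycle regulators were even in number, 6 of 53 (11.3%) in each direction, beside 16.0% and 8.28% of all tested genes. Spdya, a noncyclin activator of cyclin-dependent kinases, stood at 5.02 and 208 SPM, and Ccne2 and Ccne1, E-type cyclins, at 17.8 against 301 SPM and at 3.52 against 49.8 SPM. Cdk4, a kinase of the first gap phase, stood at 681 and 105 SPM, 6.49-fold higher in male (6.19 to 6.82), and Ccnb1, a mitotic cyclin, at 129 and 18.6 SPM. E2f6, a repressor of germ cell genes in other tissues, stood at 109.7 and 13.8 SPM.

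Among the subunits of cohesin, the ring that holds sister chromatids, 3 passed the 4-fold rule, of which 2 meiotic ones stood higher in female and 1 mitotic one in male. Smc1b, the meiotic core subunit whose promoter is printed above, stood at 80.9 SPM in testis and 1779.8 in ovary germ cells, 22.0-fold higher (21.0 to 23.0) and Rad21l, a meiotic kleisin, at 49.3 and 366 SPM. The meiotic subunits Stag3 and Rec8 did not pass, at 944 against 2423 SPM and at 26.5 against 76.3 SPM. Rad21, the mitotic kleisin, stood at 595 and 71.7 SPM, 8.30-fold higher in male (7.83 to 8.79). The other mitotic subunits were within 2-fold, with Smc1a at 199 and 153 SPM, Smc3 at 337 and 381 SPM, Stag1 at 393 and 405 SPM and Stag2 at 166 and 88.4 SPM. Of the topoisomerases, Top2b stood at 44.9 and 545 SPM, 12.1-fold higher in female (11.4 to 12.9). Kinetochore and spindle genes counted 3 of 69 (4.35%) in male and 8 (11.6%) in female, beside 16.0% and 8.28% of all tested genes. Bub3, a checkpoint protein, stood at 303 and 34.4 SPM and Spc24, of the outer kinetochore, at 6.13 and 52.7 SPM.

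Chromatin regulators also differed by member and not as a block. Among H3K9 methylation and silencing genes, 3 of 43 (6.98%) were 4-fold higher in male and 5 (11.6%) in female. Morc1, needed for silencing of transposons in male germ cells, stood at 998 and 18.8 SPM, 53.1-fold higher in male (47.7 to 59.4). Ehmt2 (G9a), a dimethyltransferase for the same residue, stood at 1511 and 144 SPM, 10.5-fold (10.1 to 10.9). Suv39h1, another methyltransferase of this residue, stood at 86.9 and 584 SPM, and Setdb2 at 45.9 and 290.2 SPM. Kdm4d, a demethylase, stood at 1.48 and 38.2 SPM. Chromatin remodellers counted 9 of 72 (12.5%) in male and 4 (5.56%) in female, near the 16.0% and 8.28% of all tested genes. Chd5, a remodeller of late sperm cells, stood at 291 and 54.3 SPM, and Baz1a, a subunit that spaces nucleosomes, at 9.64 and 276 SPM, 28.6-fold higher in female (25.1 to 32.6). Rnf20 and Rnf40, the paired ligases that put ubiquitin on H2B, stood on opposite sides, at 100.1 against 481 SPM and at 722 against 86.7 SPM.

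Several differing genes lay next to each other. Runs of at least 4 neighbouring tested genes past the size rule in the same direction were taken from the mm9 positions of the files. On chromosome 4, 9 genes from Aldh4a1 to Padi2 (139178808 to 140508501) stood higher in male germ cells, including all 5 peptidylarginine deiminases, enzymes that turn arginine into citrulline. Padi3 stood at 123 and 1.39 SPM, and Padi6, known from the egg, at 10.7 and 0 SPM. On chromosome 6, Gdf3, Dppa3, Nanog and Slc2a3 (122555420 to 122692763) formed a male run, so the glucose transporter gene above lies beside pluripotency genes. On chromosome 5, 5 Oas genes between Rasal1 and Rph3a (121098830 to 121459527) stood higher in male, again with near-identical copies. The female runs were mainly histone clusters on chromosomes 13 and 3, and 8 genes from H2-D1 to H2-Q10 on chromosome 17 (35400038 to 35611508). Clustered histone genes, whose transcripts lack a poly(A) tail, counted 48 of 59 higher in female and 0 in male. On the X, 5 genes from Gm1140 to Ids (64936074 to 67618260) stood higher in female. Among them Fmr1, an RNA-binding regulator of translation, stood at 149 and 768 SPM, and Fmr1nb, its neighbour, at 26.0 and 351 SPM.

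The median ratio of X genes was below that of the autosomes, though not along the whole chromosome. Its 586 genes at 1 SPM or more had a median log2 ratio of -0.20, against 0.26 for 14209 autosomal genes, and its summed signal was 28355 SPM in testis and 39208 in ovary germ cells. Genes at least 4-fold higher counted 74 in male and 86 in female of 456 tested on the X, against 1803 and 892 of 11349 on the autosomes. X-linked partners of Y genes were not alike. Kdm6a, a histone H3K27 demethylase, stood at 41.9 and 263 SPM and Zfx, a zinc finger factor, at 97.8 and 540.2 SPM, both higher in female, whereas Uba1, the ubiquitin-activating enzyme, stood at 1156 and 268 SPM. Eif2s3x, a translation factor subunit, stood at 68.5 and 78.4 SPM, nearly even. All 9 tested Y genes stood higher in male, and Rbmy1a1 and Usp9y stood at 144 and 132 SPM in male germ cells but at 0 and 0.707 SPM in male somatic cells.

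**Figure D4:**
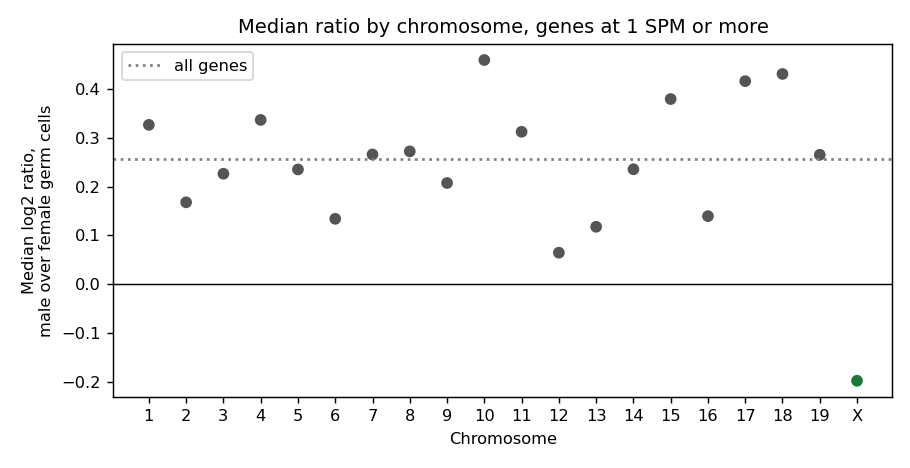
Median log2 ratio of male over female germ cells (y axis) for genes at 1 SPM or more on each autosome and the X (x axis), with the dotted line at the median of all genes, 0.26. The X is the only chromosome shown with a median below 0, at -0.20, and the Y is not drawn.

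Of 9 tested Rhox homeobox genes of the X, 6 were 4-fold higher in female and 1 in male. Rhox13 stood at 9.02 and 83.5 SPM and Rhox9 at 0.988 and 39.6 SPM, while Rhox10 stood at 34.3 and 0 SPM, at least 201-fold higher in male. Of 22 genes expressed from the paternal allele in other tissues, 5 (22.7%) were 4-fold higher in male and 0 in female. Over all tested genes the shares were 16.0% and 8.28%. Sfmbt2, a polycomb-related gene, stood at 179.8 and 8.56 SPM, and Peg10, a retrotransposon-derived gene, at 211 and 32.6 SPM. Peg3 and Igf2, of the same list, did not pass, at 116 against 229.99 SPM and at 15.7 against 26.3 SPM. Of 15 genes expressed from the maternal allele in other tissues, 1 was 4-fold higher in male and 1 in female, Gnas, a G protein subunit, at 28.8 and 189.6 SPM.

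How the differing genes fell out by level was lopsided. Among genes at 5 to 20 SPM in the higher germ library, 27.2% were 4-fold higher in male and 6.98% in female. At 100 to 500 SPM the order was reversed, with 8.25% in male and 10.4% in female, and at 500 SPM or more the shares were 11.9% and 13.5%. The median level in the higher library was 22.3 SPM for male genes and 63.4 SPM for female genes. Male germ cells also had the deeper library and fewer genes at 0, 1942 against 4607. The somatic libraries had 4333 genes at 0 in male, at 17.6 M fragments, and 4094 in female, at 24.2 M. The part of depth in the low classes was not tested, and the gene lists were not matched for level. By transcript length, genes under 1 kb were 4-fold higher in male in 9.75% of cases and in female in 14.5%, with 69 and 103 genes.

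**Figure D5:**
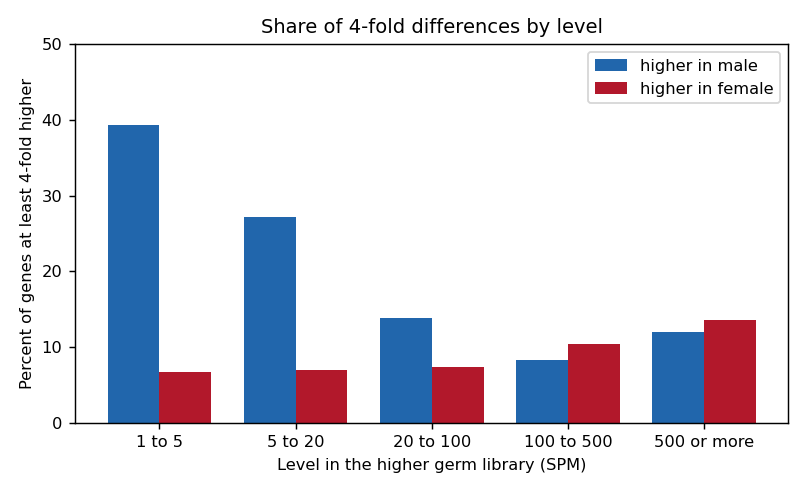
Percent of genes at least 4-fold higher in male (blue) and in female germ cells (red) (y axis) by level in the higher germ library (x axis, SPM). The male share drops from 39.3% at 1 to 5 SPM to 8.25% at 100 to 500 SPM, while the female share runs from 6.72% to 13.5%.

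Markers of other gonadal cells had signal in both germ libraries, and whether it comes from such cells or from germ cells was not tested. Summed over the whole lists, 15 Sertoli genes stood at 55.8 SPM in testis and 41.3 in ovary germ cells, 4.38% and 3.20% of the somatic library of the same sex, with 8 genes higher in male and 7 in female, and Cst9 at 0 in female germ cells. The 10 pregranulosa genes summed to 39.4 and 73.8 SPM, or 13.0% and 3.05%, with 1 higher in male and 9 in female. Foxl2 was at 0 in male. The 8 Leydig genes summed to 75.8 and 17.3 SPM, or 7.03% and 4.46%. All 8 were higher in male, with Cyp17a1, Insl3 and Cyp11a1 at 0 in female. The 12 erythroid genes summed to 591 and 175 SPM, or 1.04% and 0.764% of the somatic level, with 10 higher in male and 1 in female. Hbb-bh1 was at 0 in both, and Hba-x and Hbb-y were among those at 0 in female. The 12 endothelial genes summed to 107 and 38.4 SPM, or 49.8% and 11.9%, with 9 higher in male, 3 in female and none at 0. Of the 8 leukocyte genes, at 9.38 and 5.55 SPM, 5 were higher in male and 2 in female, and Ptprc was at 0 in both. Of the 1886 genes higher in male germ cells, 528 stood higher still in male somatic cells and 792 stood at least 4-fold above them. Of the 978 higher in female germ cells, 143 and 443 did so beside female somatic cells. Leaving out genes whose higher germ library held under 10% of the somatic level of the same sex, such as Col1a1, Cyp17a1 and Amh, left 1818 male and 974 female genes. The part of somatic RNA in the other differences was not tested.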

How the data were processed

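Strand-specific, ribosomal RNA-depleted, paired-end libraries were made from sorted cells, per the labels' protocols. Tools in the submitters' processing notes are TopHat 1.2.0, CASAVA 1.9 and edgeR, with the mm9 build. No source used here names the counting program, the annotation or the use of strand. The deposited signal is in whole numbers that cluster at a fixed spacing above 1, so the values were treated as counts that the authors scaled by 1 factor per library and rounded, and no count test was run. In the germ libraries 43.1% and 54.3% of low values lay within 0.5 of a multiple of the spacing, against 24.4% and 16.5% by chance. From 1 to 60, no whole number was absent in male and 11 were absent in female germ cells, so fragment numbers are estimates. PCR copies cannot be told from separate molecules.

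In all, 74 rows repeating a position and all values were dropped from 20373. Signals were divided by library totals. Genes were counted at 4-fold or more with 5 SPM in the higher germ library. Named genes were the 4 markers, the 15 largest ratios at 20 SPM or more and the 10 largest differences in each direction, and leading members of lists, X/Y pairs and runs of neighbouring tested genes. The text gives a selection of them, and some further genes were added after their values were seen. The members and all gene lists were chosen with earlier results of these data known. The ER folding and BMP lists, the 3 motifs (of 7 tried) and the promoters printed were chosen after their values were seen. Promoters came from RefSeq tables of GRCm38.p6, matched by symbol. A check by promoter CpG content was void because fewer than 80% of tested genes (9424 of 11814) had an entry. Some single genes are not reported here. Alternatives were 4 scalings, 3 minimum levels, 2 other folds, all rows kept and other pseudocounts. Python 3.11.15, numpy 2.4.6, pandas 2.3.3 and scipy 1.17.1 were used.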

Additional observations from a re-analysis of the deposited data

Results flagged for a closer look

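A set of 17 genes was at least 4-fold higher in male germ cells than in female germ cells and at least 4-fold higher in female than in male somatic cells, with 20 SPM or more in both comparisons, a limit set after the data were seen. Both directions were searched, and no gene higher in female germ cells met this rule. Without the 20 SPM limit, 78 of the 1886 genes higher in male germ cells were at least 4-fold opposite in somatic cells. Another 92 were at least 4-fold higher in male there too. Of the 978 genes higher in female germ cells, 5 were opposite and 18 in the same direction. With 1 library per group the opposite direction was not tested. The values below are the log2 ratio (male over female) in germ cells minus that in somatic cells. The difference was 8.06 for Lzts1, 7.35 for Mt1, a metallothionein, 6.95 for Slc35f2, 6.35 for Col6a5, 6.33 for 2900011O08Rik and 6.29 for Ccnjl. It was 5.96 for Aldoc, a brain aldolase, 5.83 for Ccbl2, 5.66 for Igfbp2, an insulin-like growth factor binding protein, 5.54 for Chst11 and 5.10 for Rab11fip4. It was 5.0 for both Igsf11 and Soat1, which esterifies cholesterol, 4.97 for Tle6, 4.75 for Vat1l, 4.69 for Sulf1 and 4.42 for Acad12. Mt1 stood at 34.6 and 1.22 SPM in testis and ovary germ cells and at 3.98 and 35.3 SPM in somatic cells of testis and ovary. Tle6, described above among the maternal genes, stood at 30.6 and 136 SPM in somatic cells of testis and ovary, so it was not limited to germ cells.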

How the results depend on the processing

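The male count of 1886 and the female count of 978 moved mainly with the minimum level and the fold. The male count was 3062 with a minimum of 1 SPM, 1005 with 20 SPM and 3485 with no minimum. At 2-fold the counts were 3561 male and 2677 female, and at 8-fold 1006 and 318, which moved the male share of called genes from 65.9% to 76.0%. Under the 4 other scalings the counts stayed within 1.5 times, at 1615 to 2103 male and 861 to 1210 female, the lowest male and highest female count coming with medians of ratios. Lists and families with a median of -0.5 or lower numbered 10, 16 with medians of ratios and 18 with a minimum of 20 SPM. The median of the X minus that of the autosomes was -0.46, and -0.17 with no minimum. The median at 5 to 20 SPM minus that at 100 to 500 SPM was 0.82, and 0.93 with medians of ratios. The median of genes under 1 kb minus that of longer genes was -0.40, -0.30 with 20 SPM and -0.26 with no minimum. Among list medians at 0.5 or more from 0, 4 changed sign. With 20 SPM they were -0.17 for heat shock genes, -0.33 for neuronal genes and -0.77 for cytokines, and with no minimum 0.055 for H2 symbols. Smaller medians did so too: with 20 SPM the feedback regulators of receptor kinases reached -0.97, Adam genes -0.45 and Zfp genes -0.13, and with no minimum Spata and Tex genes reached 0.18 and Fbx genes 0.071. Without a change of sign, the median of ion channels other than potassium channels fell from 1.39 to 0.13 with 20 SPM. The cause was not tested. The sign of 18 medians near 0, among them those of Wnt, chromatin remodeller, H3K9 silencing and ribosomal protein genes, depends on the scaling. A minimum of 1 SPM is the main setting for medians. No replicate could be left out. No paired analysis was possible because each group has 1 library. Depth limits genes near 0.120 and 0.171 SPM. The limits for a moved median were set after the data were seen.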

Other observations

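Transporters and transcription factors not described above also leaned to male germ cells. Of 203 tested solute carriers, 51 were at least 4-fold higher in male and 16 in female. Their median was 0.73, and 0.20 with a minimum of 20 SPM. Slc6a6, the taurine transporter, stood at 85.9 SPM in testis and 3.06 in ovary germ cells. Of 28 tested nuclear receptors, 8 were 4-fold higher in male and 2 in female. Rarg, a retinoic acid receptor, stood at 57.6 and 7.32 SPM, and Nr5a2 at 17.2 and 1.78 SPM, while Nr6a1, the germ cell nuclear factor, stood at 71.5 and 329.7 SPM. Of 38 tested Sox, Fox, Gata and Klf genes, 13 were 4-fold higher in male and 3 in female. Foxp3, best known from regulatory T cells, stood at 91.4 and 9.62 SPM in testis and ovary germ cells, against 27.1 and 27.3 SPM in the somatic libraries. Gata2, a blood and early germ cell factor, stood at 0.802 and 14.5 SPM.

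Cell death genes were called about as often as all genes, 8 of 49 tested at 4-fold or more in male and 3 in female. Bmf and Pmaip1, inhibitors of the protective Bcl2 family, stood at 102 against 12.8 SPM and at 30.6 against 5.57 SPM, and Casp9, the initiator caspase of the mitochondrial route, at 84.9 against 15 SPM in testis and ovary germ cells. Bcl2 itself stood at 1.32 and 5.89 SPM and Ripk1, a kinase of the death receptor route, at 8.83 and 40.9 SPM.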
